A study of Mus musculus with 42 samples.

Results

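Dnajc15 was 1 of the 3230 mouse genes that the array's named reporters measured, and it was the gene followed here through naive, effector, rested and memory CD4+ T cells of the Th1 and Th2 lineages. It was found by its symbol, or by its older symbol Dnajd1, as the single gene of a reporter in the platform's probe annotation, and 1 of 4992 reporters met that condition. The gene had been picked because it was higher in Th1 than in Th2 cells in these same arrays, so every Th1 to Th2 difference of Dnajc15 below is a description without a test. Tests were made of its change between stages averaged over both lineages, which does not use the lineage difference, and of other genes.

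Dnajc15, also called methylation-controlled J protein or MCJ, is a J-domain protein of the inner mitochondrial membrane. J-domain proteins stimulate the ATPase of Hsp70 chaperones, and Dnajc15, like its close relative Dnajc19, meets the mitochondrial Hsp70 encoded by Hspa9 at the TIM23 translocase, through which proteins enter the matrix. In mouse CD8+ T cells it is known as a brake on complex I and on mitochondrial respiration, and the human gene is known to be silenced by CpG methylation in some tumours.

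The samples followed CD4+ T cells from mice that carry 2 transgenes, green fluorescent protein and the AND T cell receptor (its ligand is I-Ek with a peptide of pigeon cytochrome C), so that all 7 groups share these transgenes. Naive cells were taken from the spleen and were CD44lo, CD62Lhi, CD45RBhi and CD25-, although the source field of the labels names the thymus. Effector Th1 and Th2 cells came from naive cells cultured for 4 days with antigen-presenting cells in conditions that favour Th1 or Th2 differentiation. Rested Th1 and Th2 cells were effector cells kept for a further 3 days without antigen-presenting cells and were CD44hi, CD62Llo, CD45RBlo and CD25-. Memory Th1 and Th2 cells were rested cells that had been transferred into thymectomized, lethally irradiated mice given T-cell-depleted bone marrow, and were sorted by flow cytometry after 4 to 12 weeks. Each of the 7 groups held 3 samples numbered 1 to 3, and each sample had 2 arrays, a and b, probed with cDNA labelled with 33P. The labels do not say whether samples of a group came from separate animals or cultures, so p-values measure only the spread between these samples. The array medians of the deposited intensities ran from 5.74 to 12.99, and the number of arrays limits the precision.

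The 250 bases upstream of the Dnajc15 start are shown because CpG methylation is known to silence the human gene. In the RefSeq annotation of GRCm38.p6 the gene (Entrez 66148) lies on the minus strand at chr14:77826217-77874917, and the upstream stretch at chr14:77874918-77875167, read 5′ to 3′ on the minus strand with every CpG in capitals, is the following.
Dnajc15 upstream: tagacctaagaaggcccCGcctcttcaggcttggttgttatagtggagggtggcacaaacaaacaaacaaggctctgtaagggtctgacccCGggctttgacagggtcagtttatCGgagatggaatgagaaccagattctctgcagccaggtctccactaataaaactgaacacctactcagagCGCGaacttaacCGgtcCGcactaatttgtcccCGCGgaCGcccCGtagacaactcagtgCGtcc
It holds 12 CpG dinucleotides, most of them in the stretch nearest the start, and a GC content of 52.8%. Of 32851 mouse promoters in the same RefSeq table, 33.5% had at least 12 in the same 250 bases and the median promoter had 6. Methylation was not measured in these samples. Motifs of 4 factor families with roles in T cells were searched on both strands by their letters. The interferon-activated motif TTCNNNGAA is present in 7.02% of promoters, the T-box motif AGGTGTGA in 1.12%, the GATA motif AGATAA in 9.99% and the Ikaros motif TGGGAA in 21.6%, and none of these letters occurs in the Dnajc15 stretch. Where on the transcript the reporter lies, in an exon, a coding part or a UTR, is not given in the sources used here.

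Dnajc15 was low in naive cells and higher in every sample of effector and rested cells of either lineage. Levels are given as log2 of quantile-normalised intensity plus 1, the mean of the 4 spots of a sample, so that a difference of 1 is 2-fold and changes of dim genes are understated. In naive samples 1, 2 and 3 the level was 3.79, 3.49 and 3.70, with a mean of 3.66 ± 0.15 (SD, n = 3). The median reporter of a sample lay between 3.07 and 3.18, and Dnajc15 stood at the 56.8th to 63.9th percentile of reporters in naive cells, a little above the middle of the array. In effector Th1 samples the level was 5.54, 5.70 and 5.48 (mean 5.57 ± 0.11), between the 85.0th and 87.0th percentiles. In effector Th2 samples it was 4.87, 4.80 and 4.94 (mean 4.87 ± 0.07), between the 78.0th and 79.8th percentiles. All effector samples thus lay above all naive samples, and the Th1 samples formed the upper of the effector groups without overlap.

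After the rest without antigen-presenting cells the level stayed high. Rested Th1 samples read 6.11, 5.85 and 5.77 (mean 5.91 ± 0.18). Rested Th2 samples read 4.87, 4.80 and 4.97 (mean 4.88 ± 0.08). The rested Th1 samples all lay above the effector Th1 samples, while the rested and effector Th2 samples overlapped almost completely. In memory Th1 samples the level was 5.16, 6.47 and 5.71 (mean 5.78 ± 0.66). In memory Th2 samples it was 3.71, 4.40 and 4.36 (mean 4.16 ± 0.39). The memory groups were the most widely spread, sample 1 was the lowest in both, and memory Th2 sample 1 fell within the naive range. Because these are bulk samples, fewer cells that contain Dnajc15 RNA and less Dnajc15 RNA per cell cannot be told apart.

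**Figure D1:**
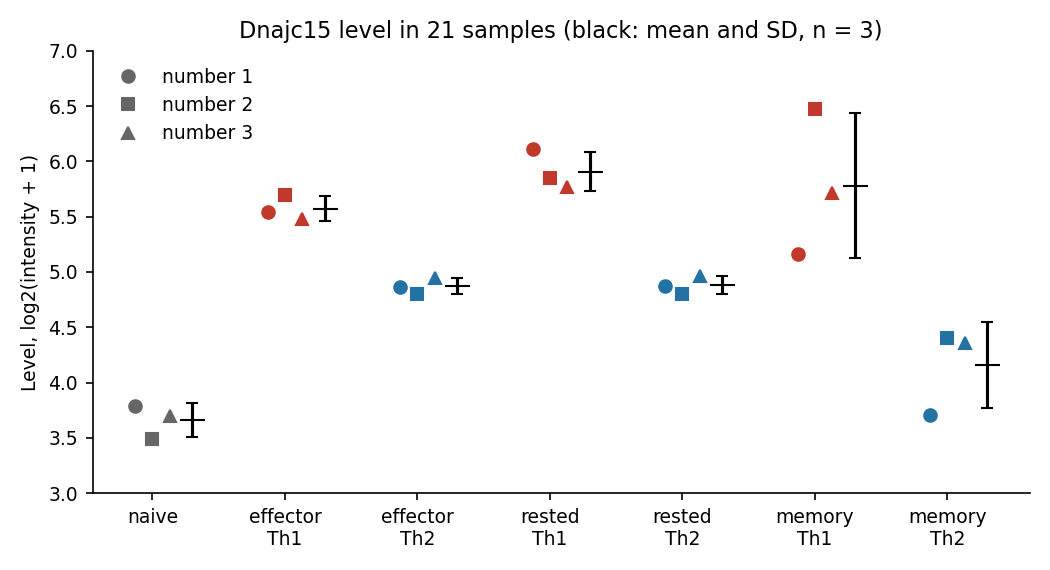
Level of Dnajc15, log2(intensity + 1), in each of the 21 samples by group, with the sample number as the marker shape and the group mean and SD (n = 3) in black. Naive samples sit between 3.49 and 3.79, effector and rested Th1 samples between 5.48 and 6.11, and memory Th2 samples reach down to 3.71.

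Ordered by their means, the groups ran from rested Th1 through memory Th1 and effector Th1 to rested Th2, effector Th2, memory Th2 and naive. Rested Th1 exceeded memory Th1 by 0.13 and memory Th1 exceeded effector Th1 by 0.21, and in both of these neighbouring pairs the samples overlapped. The lowest Th1 group, effector Th1, exceeded the highest Th2 group, rested Th2, by 0.69 without overlap. Rested Th2 and effector Th2 differed by 0.01. Effector Th2 exceeded memory Th2 by 0.71 without overlap, and memory Th2 exceeded naive by 0.50 with overlap. Between neighbours the ladder therefore had breaks at 2 places, between the Th1 and Th2 groups and between memory Th2 and the other Th2 groups.

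The rise from naive to effector cells held when tested over both lineages. With Th1 and Th2 averaged, effector cells exceeded naive cells by 1.56 ± 0.24 (SE) on the log2 scale, a 2.95-fold rise (limma, adjusted p = 7.97e-05, 95% interval 1.07 to 2.06), and all 6 effector samples lay above all 3 naive samples. Among the 3230 genes 14.8% were called in this comparison at an adjusted p under 0.05 and 8.17% were called higher and 6.59% lower, and 13.6% had all 6 effector samples above the naive samples. Rested cells exceeded naive cells by 1.73 ± 0.24 (limma, adjusted p = 6.52e-05, interval 1.24 to 2.23), in 6 of 6 samples. The share of genes called there was 9.23%, 4.12% were called higher, and 6.35% had all 6 rested samples above the naive samples. Both comparisons use the same 3 naive samples and are not independent of each other. This fit counts Th1 and Th2 samples of the same number as separate. Their deviations from group means correlated at 0.788 to 0.909 in effector, 0.642 to 0.783 in rested and 0.806 to 0.818 in memory cells. The 6 samples of a stage are thus not 6 independent ones, and SE and p-values of this fit can be too small.

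Memory cells held more Dnajc15 RNA than naive cells under quantile normalization of both arrays. Averaged over the lineages the excess was 1.31 ± 0.24, or 2.48-fold (limma, adjusted p = 0.0102, interval 0.82 to 1.80), in a comparison in which 1.02% of genes were called and 0.495% were called higher. Leaving out naive sample 2 gave 1.22 with an adjusted p of 0.105, and leaving out naive sample 3 gave 1.33 with an adjusted p of 0.0581 (limma), so the call rests on those samples. It was also lost without normalization between arrays, at 1.24 with an adjusted p of 0.301, and with array a alone, at 1.33 with an adjusted p of 0.0602 (limma). Described by lineage, memory Th1 exceeded naive by 2.12 (4.35-fold) with all samples higher, while memory Th2 exceeded naive by 0.50 (1.41-fold) with overlap. Subtracting the naive sample of the same number gave 1.37, 2.98 and 2.01 in memory Th1, and -0.08, 0.91 and 0.66 in memory Th2.

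The steps between effector, rested and memory cells gave no call for Dnajc15. Rested minus effector was 0.17 ± 0.19 (limma, adjusted p = 0.577, interval -0.23 to 0.58), where 25% of genes were called. Its sign turned under median centring of the arrays and without normalization, to -0.09 in both. Memory minus rested was -0.42 ± 0.19 (limma, adjusted p = 0.109, interval -0.83 to -0.02), where 27.8% of genes were called. Without memory Th1 sample 2, the highest Dnajc15 sample of all, this step became -0.60 and passed the test (limma, adjusted p = 0.0141). Memory minus effector was -0.25 ± 0.19 (limma, adjusted p = 0.35, interval -0.66 to 0.15), where 29.8% of genes were called. As a description by lineage, the step from rested to memory was -0.13 in Th1 with overlap and -0.72 in Th2 without overlap. Whether the lineages differ in that step was not tested for Dnajc15, since the gene was picked by its lineage difference.

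The Th1 to Th2 gap by which Dnajc15 was picked appeared at each stage and in each numbered pair. Between samples of the same number, effector Th1 exceeded effector Th2 by 0.67, 0.90 and 0.54 (mean 0.70 ± 0.18 SD, 1.63-fold). The rested pairs differed by 1.23, 1.05 and 0.80 (mean 1.03 ± 0.22, 2.04-fold). The memory pairs differed by 1.45, 2.07 and 1.35 (mean 1.62 ± 0.39, 3.08-fold). All 9 pairs were higher in Th1, with a mean of 1.12 or 2.17-fold, and every memory pair had a wider gap than any effector or rested pair. These are values of the contrast that chose the gene and nothing further is read from them. For comparison, 1.52% of genes were higher in Th1 in all 9 pairs. Th1 lay above Th2 without overlap for 3.78% of genes in effector cells, 5.94% in rested cells and 3.19% in memory cells, and for 0.124% at all 3 stages. Those last were Dnajc15 and 3 genes named here after their values were seen, the nuclear kinase gene Hipk1 (mean difference 0.84), Rab3ip, which encodes an exchange factor for Rab GTPases (0.57), and Sugt1, which encodes an Hsp90 co-chaperone (0.49).

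The deposited spot intensities showed how much independent measurement stands behind each Dnajc15 gap. In naive samples 1, 2 and 3 the mean of the 4 Dnajc15 spots was 14.2, 8.70 and 15.5 intensity units. Memory Th1 samples read 30.6, 102 and 64.2 units, and memory Th2 samples read 12.1, 19.6 and 16.3 units. In naive sample 1 single spots ran from 7.68 to 22.8 units, so the spots of a sample could differ more than the lineages did in effector or rested cells. Yet in 13 pairs of samples with the same number the ratio between the samples was the same at all 4 spots. These pairs were the 9 Th1 and Th2 pairs of a stage, and naive samples 1 and 3 with the memory samples of their number. In each of them all compared reporters, those with an intensity above 5 at every spot, kept a constant ratio within 1%, and for Dnajc15 the ratios differed by at most 0.0103%. The difference between arrays a and b, taken over reporters, correlated at 0.986 to 0.999 within these pairs and at no more than 0.066 between other samples, which left 10 distinct patterns over the 21 samples. How these values arose is not given in the sources used here. The 4 spots of a pair hence give a single Th1 to Th2 ratio and not 4 readings of it.

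In the intensities as deposited, Dnajc15 of effector Th1 over Th2 was 1.65, 2.01 and 1.64 for numbers 1, 2 and 3. The rested ratios were 1.55, 1.90 and 2.34, and the memory ratios were 2.54, 5.21 and 3.94. Every ratio was above 1 before the normalization applied here, while any earlier normalization of the deposited intensities is not known. The rested pairs came in the opposite order after quantile normalization, at 2.35, 2.06 and 1.74-fold, and rested Th1 sample 1 had the lowest median intensity of the samples, 5.82 against 8.30 for its Th2 partner. No effector or rested sample shared its pattern with a naive sample or with a sample of another stage. A change of pattern and a change of stage therefore cannot be told apart in any stage comparison other than memory against naive. Restricted to samples that share a pattern, memory cells exceeded naive cells in Dnajc15 by 0.99 ± 0.19 (limma with the pattern as a fixed block, adjusted p = 0.00596). This fit links naive to memory cells only through the samples numbered 1 and 3. Its difference leaves out naive sample 2, the lowest in Dnajc15, and memory Th1 sample 2, the highest. In that fit, which was added after the patterns had been seen, 28.9% of genes were called.

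**Figure D2:**
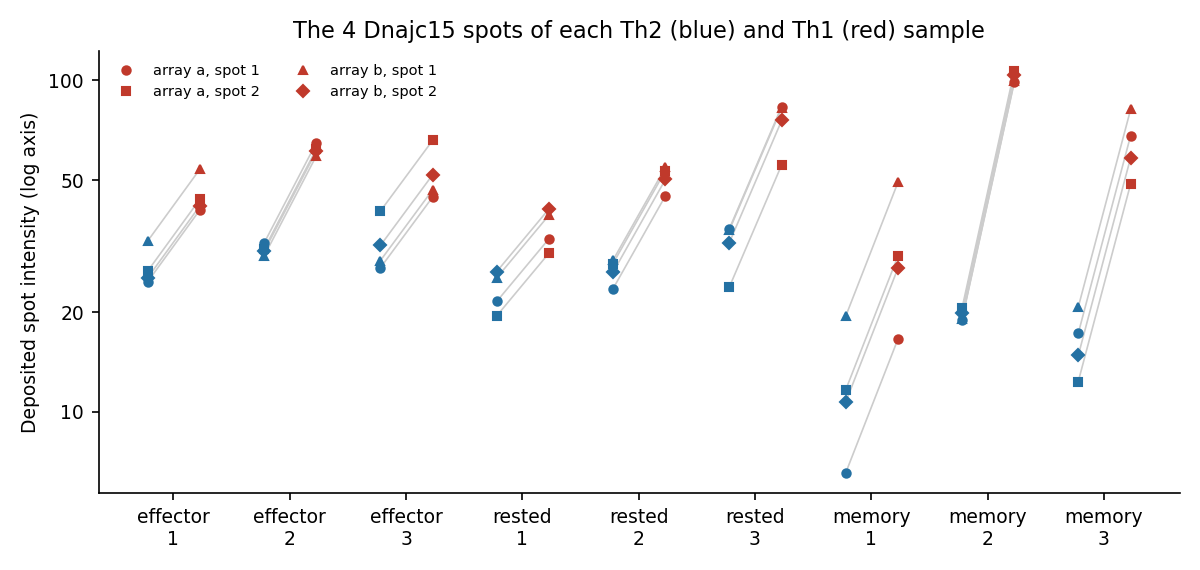
Deposited intensity (log axis) of the 4 Dnajc15 spots in the Th2 sample (blue) and the Th1 sample (red) of each stage and number, with lines joining the same spot. The lines of a pair run parallel, and in memory pair 2 the spots rise from a mean of 19.6 to a mean of 102 units.

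Other J-domain genes gave no call between the lineages in the fit without a block, in which few genes of any kind were called. Of 47 listed J-domain genes besides Dnajc15, 16 were measured and none was called between Th1 and Th2 at any stage or over the mean of the 3 stages. The shares of all genes called were 0.248% in effector cells, 0.372% in rested cells, 0.248% in memory cells and 0.433% over the mean. The median J-domain gene differed by -0.05 over the mean of the stages, against 0.00 for all genes. Dnajc19, the closest relative, is not among the named reporters. Dnaja3, a mitochondrial J-domain protein also known as Tid1, read 5.58, 6.19 and 2.96 in naive cells and was lower in sample 3 than in samples 1 and 2 of every group.

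The partners of Dnajc15 at the translocase also gave no lineage call in that fit, in which 0.248% to 0.433% of all genes were called. None of the 8 measured genes of mitochondrial protein import, of 40 listed, and none of the 9 measured mitochondrial chaperones and proteases, of 21 listed, was called between the lineages. Hspa9, the mitochondrial Hsp70, read 3.49, 3.43 and 3.72 in effector Th1 and 4.15, 3.59 and 4.00 in effector Th2 samples. In rested Th1 it read 2.62, 2.72 and 3.28 and in rested Th2 3.61, 3.53 and 3.34. Its level was thus lower in Th1 in each of these pairs, the direction opposite to Dnajc15, but over the mean of the stages the difference of -0.35 ± 0.14 did not pass the test (limma, adjusted p = 0.79). Of Timm50, the presequence receptor of TIM23, the mean difference was -0.03 ± 0.18 (limma, adjusted p = 1.00).

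The respiratory chain, on which Dnajc15 is known to act, gave no lineage call in the same fit either. None of 19 measured complex I genes, of 51 listed, and none of 20 measured genes of complexes II to V and cytochrome c, of 66 listed, was called at any stage. The median difference over the 3 stages was -0.08 for complex I and -0.10 for the other complexes. These means join stages of opposite sign. In rested cells the medians were -0.40 and -0.36, and 5 of 19 and 6 of 20 genes were higher in Th1. The share of all genes higher there was 45.4%. In memory cells the medians were 0.14 and 0.11, and 16 of 19 and 17 of 20 genes were higher in Th1, against 54.3% of all genes. Without normalization between arrays the medians over the 3 stages were 0.01 for complex I and 0.02 for the J-domain genes, so the signs of the medians over the 3 stages are not settled. Only interferon-induced genes were called among the members of the 8 lists, 1 of 7 in effector and 1 of 7 in rested cells. Of all genes 0.155% and 0.372% were called higher in Th1 at these stages. In memory cells none of the 7 was called, 1 was higher in Th1 by direction, and their median difference was -0.18. Ifitm3, an interferon-induced membrane protein, read 8.15, 8.11 and 7.98 in effector Th1 and 4.40, 4.62 and 4.73 in effector Th2 samples, a difference of 3.50 ± 0.30 (limma, adjusted p = 7.65e-07). B2m, the light chain of MHC class I, read 11.37, 11.22 and 11.20 in rested Th1 and 10.46, 10.10 and 10.15 in rested Th2 samples, a difference of 1.03 ± 0.21 (limma, adjusted p = 0.0278). Under median centring, and without normalization, no list member was called in rested cells. Over the mean of the stages 2 of 7 interferon-induced genes were called higher in Th1, where 0.279% of all genes were. They were Ifitm3 by 1.44 ± 0.17 (limma, adjusted p = 0.000182) and B2m by 0.65 ± 0.12 (limma, adjusted p = 0.0129). By direction alone 5 of the 7 were higher. In memory cells B2m read 10.80, 10.36 and 10.63 in Th1 and 10.77, 10.60 and 10.50 in Th2 samples.

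**Figure D3:**
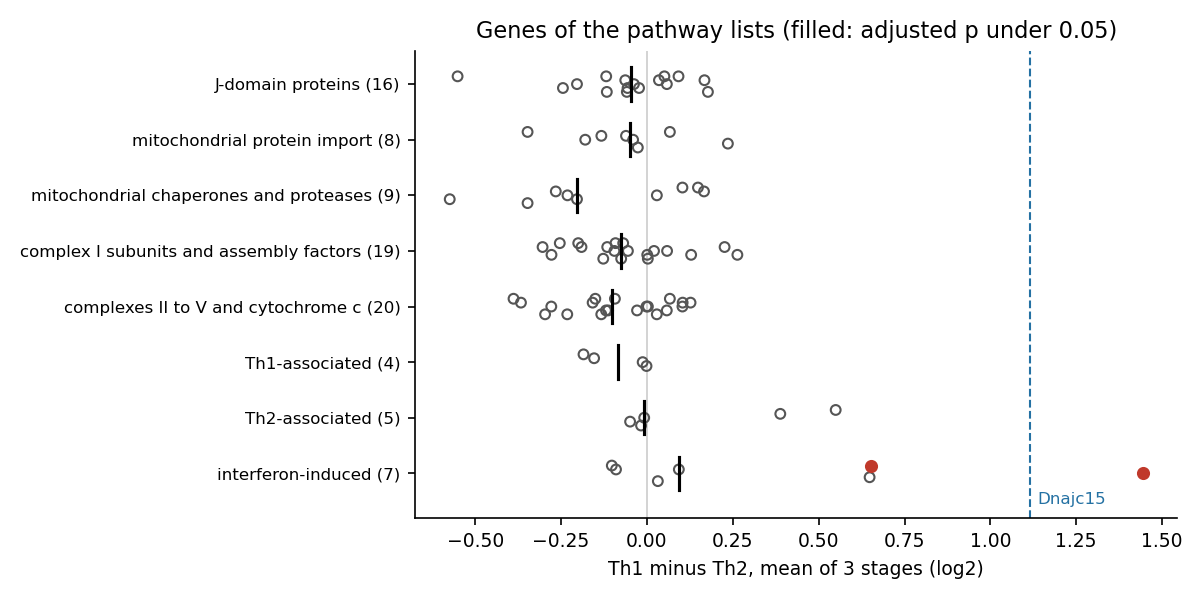
Th1 minus Th2, mean of the 3 stages on the log2 scale, for each measured gene of 8 lists (count in parentheses), with the median of a list as a black bar and genes at an adjusted p under 0.05 filled. Ifitm3 at 1.44 and B2m at 0.65 are the filled points, and the dashed line marks Dnajc15 at 1.12, which is drawn without a test.

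When only samples that share a pattern were compared, part of the respiratory chain genes passed the test as lower in rested Th1 cells, where Dnajc15 was higher. In that fit 8 of 19 complex I genes were lower and 1 was higher in rested Th1, where 11.4% of all genes were lower and 8.42% were higher. Ndufa10 was lower by a log2 difference of -0.71 ± 0.16 (limma, adjusted p = 0.0161) and Ndufb6 was higher by 0.54 ± 0.13 (limma, adjusted p = 0.0219). Of complexes II to V and cytochrome c 6 of 20 were lower and none was higher. Cox4i1, a subunit of complex IV, read 3.25, 3.61 and 3.85 in rested Th1 and 4.29, 4.76 and 4.65 in rested Th2 samples, a difference of -0.997 ± 0.13 (limma, adjusted p = 0.00153). The gene for the electron carrier cytochrome c, Cycs, was lower by -0.80 ± 0.16 (limma, adjusted p = 0.00975). Under median centring of the arrays in the same fit the counts were 9 lower and none higher for complex I, and 6 lower and none higher for the other complexes, at 12.8% of all genes lower and 4.71% higher.

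Chaperones of the cytosol, the endoplasmic reticulum and the mitochondrion were among the lower genes of rested Th1 in the same fit. Of 16 J-domain genes 7 were lower and 1 was higher, where 11.4% of all genes were lower and 8.42% were higher. Dnaja1, a cytosolic partner of Hsp70, read 3.55, 4.24 and 4.02 in rested Th1 and 4.95, 4.97 and 5.28 in rested Th2 samples, without overlap (difference -1.13 ± 0.13, limma, adjusted p = 0.000947). Dnajb9, a J-domain protein of the endoplasmic reticulum, differed by -0.94 ± 0.22 (limma, adjusted p = 0.0163). Of the import and mitochondrial chaperone lists, Hspa9 was lower by -0.62 ± 0.17 (limma, adjusted p = 0.0339), and the protease components Clpx and Yme1l1 by -0.98 ± 0.22 and -0.998 ± 0.20 (limma, adjusted p = 0.0149 and 0.00956). Dnajb9 (2.05, 1.62 and 1.53) and Yme1l1 (1.04, 1.38 and 0.77) were dim in rested Th1, below the median reporter of each sample. No other gene of these lists was called there except Dnajb4, higher by 0.53 ± 0.15, and the remaining lower J-domain genes Dnaja2, Dnajb11, Dnajc3, Dnajc9 and Dnajc17. The pairing check also allows the replicate number as the block for Th1 and Th2 samples of a stage. With that block 1 J-domain gene (Dnaja1), 1 gene of complexes II to V (Cox4i1) and no complex I gene were lower. Of all genes 2.6% were called there, and 1.02% were called lower.

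The other stages gave few such calls when only samples with a shared pattern were compared. In effector cells 2.32% of all genes were called, 1.36% higher and 0.96% lower in Th1. There 1 complex I gene, Ndufa13, was lower in Th1 by -0.52 ± 0.10 (limma, adjusted p = 0.043), and 3 of 7 interferon-induced genes were called higher. In memory cells, where 4.18% were called, Ndufc2 was higher by 0.35 ± 0.08 and Ndufa8 lower by -0.42 ± 0.09 (limma, adjusted p = 0.0453 and 0.0366). Under median centring the memory counts for complex I were 5 higher and 1 lower, and for complexes II to V 4 higher and none lower. Of all genes 10.9% were called there, 7.09% higher and 3.78% lower.

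Along the stages, part of the measured respiratory chain genes rose from naive to effector cells, the step in which Dnajc15 rose. Of 19 complex I genes 8 rose and none fell, where 8.17% of all genes rose and 6.59% fell. Ndufv3 read 4.88, 5.03 and 5.66 in naive samples and 7.91, 7.59 and 7.90 in effector Th1 samples, and over both lineages it showed a rise of 2.59 ± 0.22 (limma, adjusted p = 5.73e-08). Ndufc2 rose by 1.35 ± 0.23, Ndufb9 by 1.21 ± 0.28 and Ndufa13 by 1.07 ± 0.23 (limma, adjusted p = 0.000298, 0.00545 and 0.00244). Of complexes II to V and cytochrome c 6 of 20 rose and none fell, among them Atp5j of the ATP synthase by 1.38 ± 0.24 (limma, adjusted p = 0.000326). From effector to rested cells, a step in which Dnajc15 gave no call, 4 complex I genes and 11 genes of the other complexes fell and none rose, where 13.8% of all genes fell. Ndufv3 fell by 1.70 ± 0.18 and Cycs fell by 1.92 ± 0.17 (limma, adjusted p = 9.09e-07 and 8.42e-08). Against naive cells, 3 of 19 complex I genes were higher in rested cells and none was lower, where 4.12% of all genes were higher and 5.11% lower. These were Ndufv3 by 0.89 ± 0.22, Ndufa13 by 0.76 ± 0.23 and Ndufb5 by 0.74 ± 0.20 (limma, adjusted p = 0.0166, 0.0409 and 0.0267). Of complexes II to V and cytochrome c 1 of 20 was higher in rested cells, Atp5j2 by 0.76 ± 0.18 (limma, adjusted p = 0.0107), and 2 were lower, Cycs and Cox4i1, of which Cox4i1 fell by 1.14 ± 0.25 (limma, adjusted p = 0.0062).

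Some J-domain and import genes were called along the stages, the J-domain genes at shares not far from those of all genes. Of 16 J-domain genes, 1 rose and 2 fell from effector to rested cells, where 25% of all genes were called. From effector to memory cells 3 rose and 2 fell, where 29.8% of all genes were called. Between naive and rested cells 2 fell and none rose, where 9.23% of all genes were called. From naive to effector cells Dnaja1 fell by 1.29 ± 0.22 and Dnajb4 fell by 0.87 ± 0.21 (limma, adjusted p = 0.00023 and 0.00679), and no J-domain gene rose, where 8.17% of all genes rose and 6.59% fell. From rested to memory cells 4 of 16 J-domain genes rose and none fell, where 15.3% of all genes rose and 12.5% fell. Dnaja1 led them with 2.11 ± 0.18 (limma, adjusted p = 1.39e-07). Of the import genes Timm50 fell by 0.97 ± 0.22 and Hspa9 fell by 0.54 ± 0.17 from effector to rested cells (limma, adjusted p = 0.00293 and 0.0227), where 13.8% of all genes fell, and none was called in the other 5 stage comparisons. Hspe1, the partner of the mitochondrial chaperonin, rose by 1.62 ± 0.21 from rested to memory cells (limma, adjusted p = 2.16e-05).

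Between memory and naive cells, where Dnajc15 was higher, no gene of the J-domain, import, mitochondrial chaperone or respiratory chain lists was called in the fit without a block, in which 1.02% of all genes were called. In samples with a shared pattern (naive and memory samples 1 and 3), 5 of 20 genes of complexes II to V were called higher in memory cells and none lower. Of all genes 14.6% were called higher and 14.3% lower there. Cox6c was higher by 0.83 ± 0.15 and Atp5h by 0.69 ± 0.13 (limma, adjusted p = 0.0045 and 0.00656). Of complex I 4 of 19 were higher and 1 was lower, and of J-domain genes 1 of 16 was higher and 4 were lower. With the replicate number as a block, 3 genes of complexes II to V were higher in memory cells and 1 complex I gene, Ndufa8, was lower. Of all genes 6.32% were called there, 3.22% higher and 3.1% lower.

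The lineage labels could be checked against few defining genes. Of 22 Th1-associated genes 4 were measured (Il12rb1, Gzmb, Lta and Tnf) and of 20 Th2-associated genes 5 (Il6, Il9, Il13, Il24 and Il4ra). None of these 9 was called between Th1 and Th2 in the fit without a block. Only 0.248% to 0.433% of all genes were called there, so this count cannot check the labels. Over the mean of the stages 0 of the 4 Th1-associated genes were higher in Th1 (median difference -0.08), against the direction of their list. Of the 5 Th2-associated genes 2 were higher in Th1 over that mean, which joins stages of opposite sign. Under quantile normalization 5 of 5 were higher in Th1 in effector and in rested cells, against their list, and 0 in memory cells. The medians were 0.02, 0.14 and -0.20, and 54.3%, 45.4% and 54.3% of all genes were higher in Th1. Il6, Il9 and Il4ra lay below the median reporter in every sample. In memory cells 3 of the 4 Th1-associated genes were higher in Th1 under quantile normalization, and 0 under median centring. The master regulators Tbx21 and Gata3 and the cytokines Ifng and Il4 are not among the named reporters. Comparing only samples with a shared pattern, the Th2-associated cytokine genes Il13 and Il24 were higher in rested Th1 than in rested Th2, against the direction of their list, by 1.43 ± 0.41 and 1.41 ± 0.19 (limma, adjusted p = 0.0407 and 0.00157). Il13 was dim there, at 2.83, 1.90 and 3.96 in rested Th1 and 1.47, 1.70 and 1.23 in rested Th2. Of 16 CD4 T cell genes only Cd247 and Il7r were measured, so the CD4+ label could hardly be checked.

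Markers of other cells moved with some of the groups in which Dnajc15 differed. The summed linear level of the 7 measured myeloid markers, of 17 listed, was 161 to 195 in naive samples, 42.8 to 57.6 in the effector samples and 73.6 to 118 in the rested samples. It was 61.3 to 67.3 in memory Th1 and 76.1 to 92.5 in memory Th2, so the naive samples, lowest in Dnajc15, were highest in these markers. From naive to effector cells 3 of the 7 fell and none rose, where 6.59% of all genes fell. From naive to memory cells 2 fell and none rose, Lyz2 and Fcer1g, where 0.526% of all genes fell. The only B cell marker measured, Blnk, fell by 1.14 ± 0.33 from naive to effector cells (limma, adjusted p = 0.0261). Between memory Th1 and memory Th2 0.248% of all genes were called and 0.186% were lower in Th1. Lyz2 was lower in Th1 there by -1.98 ± 0.31 (limma, adjusted p = 0.00487). Of 3 granulocyte markers S100a9 was lower by -2.75 ± 0.33 and Ltf by -1.37 ± 0.27 (limma, adjusted p = 0.000164 and 0.0396), and Csf3r was not called. The summed linear level of these 3 granulocyte markers was 148 to 245 in naive samples and 231 to 374 in rested Th1 samples. In this sum the naive samples were thus not the highest, and rested Th1 had the highest mean of Dnajc15. Csf3r made up most of the sum, at 7.27, 7.70 and 6.52 in naive and 8.42, 8.52 and 7.79 in rested Th1 samples. S100a9 went the other way, at 5.23, 4.99 and 5.69 in naive and 1.60, 2.05 and 2.95 in rested Th1 samples. Ltf read 3.32, 2.90 and 2.91 in naive and 3.10, 2.44 and 2.24 in rested Th1 samples. Of 5 measured fibroblast and stromal markers, 1 was called between the lineages, in rested cells, where 0.372% of all genes were called. It was Sparc, a secreted matrix protein, which read 6.33, 5.52 and 4.32 in rested Th1 and 4.03, 3.68 and 3.38 in rested Th2 samples, a difference of 1.69 ± 0.36 (limma, adjusted p = 0.0448). All 3 rested Th1 samples thus lay above the rested Th2 samples in Sparc. The part of these cells in the Dnajc15 values was not tested.

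The genes whose levels followed Dnajc15 most closely over the 21 samples came from several cell compartments. Among 1828 genes at or above the median level, Pearson's r with Dnajc15 was highest for Aaas, a nuclear pore component (0.84), Emd, the inner nuclear membrane protein emerin (0.82), and Hipk1 (0.80). Then came Ly6e, a GPI-anchored surface protein (0.72), Atp5j2, a subunit of the ATP synthase (0.70), Cemip2, a transmembrane protein (0.68), Drr1 (0.67) and Igsf10 (0.64). The lowest r belonged to Mapk14, the kinase p38α (-0.76), Arhgap17 (-0.78), and H3f3b, a gene of histone H3.3 (-0.86). These r describe 21 samples that share stages, patterns and the quantile normalization. Without the naive samples r was 0.71 for Aaas, 0.78 for Hipk1, 0.28 for Igsf10 and -0.79 for H3f3b.

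Most of these genes were higher in Th1 than in Th2 samples of the same number. Hipk1 was higher in Th1 by 0.60 in effector, 0.77 in rested and 1.16 in memory cells, and it was higher in Th1 in 9 of 9 pairs, as were Emd, Ly6e, Cemip2 and Igsf10. Aaas was higher in Th1 in 8 pairs, Drr1 in 7 and Atp5j2 in 5, whereas H3f3b was higher in Th1 in none. All 8 of the most similar genes stayed among the 50 most similar under the 7 alternatives in which this was recomputed. Since Dnajc15 was picked by its lineage gap, a like gap in these genes follows in part from the way they were chosen.

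**Figure D4:**
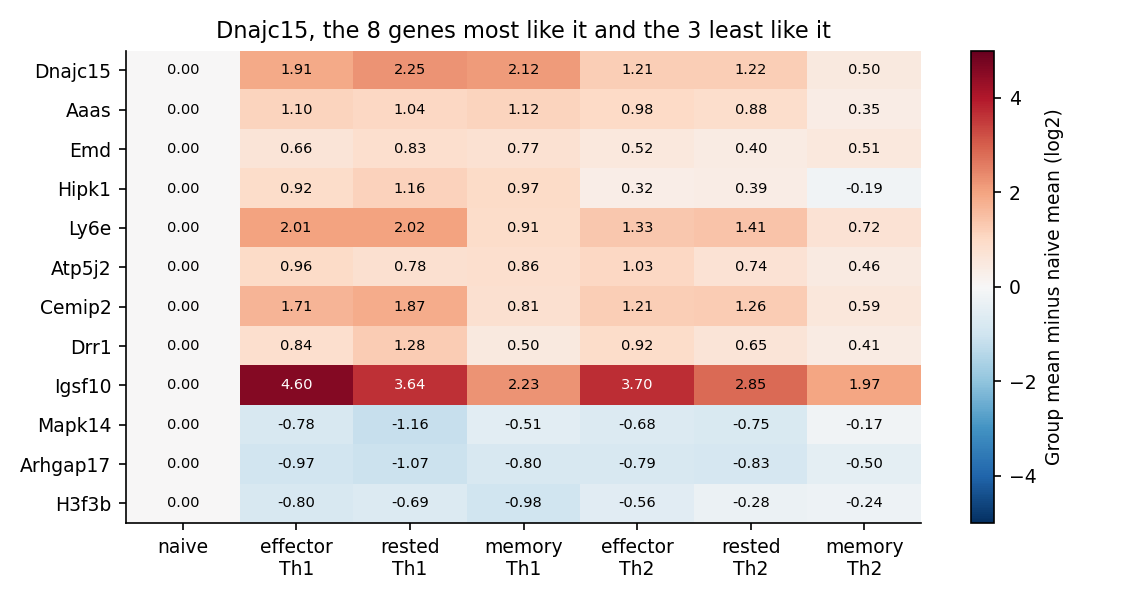
Group mean minus naive mean (log2) of Dnajc15, the 8 genes most like it and the 3 least like it over the 21 samples, with each value printed in its cell. Dnajc15 reads 2.25 in rested Th1 and 0.50 in memory Th2, and H3f3b is below 0 in all 6 groups.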

How the data were processed

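RNA of 42 arrays (21 samples, 7 groups of 3) was measured. The authors deposited linear intensities of 9600 spots per array, none negative; labelled cDNA was made from 5 to 15 µg of total RNA of cryopreserved cells with oligo(dT) primers, per the labels' protocols. For the image reader, background subtraction and normalization behind them: not given in the sources used here. In the series matrix each array's intensities were multiplied by 1 constant, and that source was an alternative. Probe annotation named 1 gene for 3626 of 4992 reporters, of which 3605 matched RefSeq (GRCm38.p6), giving 3230 genes, each represented by its brightest reporter. Memory Th2 samples were grouped by title, as their descriptions abbreviate differently.

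All arrays were quantile-normalised, 1 was added and log2 taken; the spots of a reporter, then arrays a and b, were averaged. A limma 3.58.1 model (R 4.3.3; lmFit, eBayes) covered all 7 groups, with Benjamini-Hochberg adjustment over 4992 reporters and calls at 0.05 in 6 stage and 4 lineage comparisons. The script was tested on simulated data. Tables used Python 3.11.15, pandas 2.3.3 and numpy 2.4.6, and plots matplotlib 3.10.9. Genes named were Dnajc15, the 8 most and 3 least correlated with it, and members of 8 pathway and 8 marker lists. The gene, the lists and this rule were chosen with earlier results of these data known.

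Pairing was checked by the correlation of same-numbered samples' deviations from group means. It was 0.642 to 0.909 for the 9 Th1 and Th2 pairs of a stage, so numbers pair these, and 0.076 to 0.734 between stages, with 2 of 54 at or below 0.1, both between effector and memory. Alternatives were median centring, no normalization, pseudocounts of 0.25 and 16, the series matrix, 1 array per sample, a filter on dim reporters, the replicate block, the shared pattern as a random block, trend and robust options, and leaving out each sample. The shared pattern as a fixed block, also with median centring, was added after seeing the data.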

Additional observations from a re-analysis of the deposited data

Results flagged for a closer look

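Ifitm3, an interferon-induced membrane protein, changed differently on rest in the 2 lineages. It read 8.15, 8.11 and 7.98 in effector Th1 and 2.40, 2.63 and 2.91 in rested Th1 samples, against 4.40, 4.62 and 4.73 in effector Th2 and 1.89, 2.06 and 2.59 in rested Th2 samples. The change from effector to rested cells was lower in Th1 than in Th2 by a log2 difference of -3.03 ± 0.42 (limma interaction term, adjusted p = 0.00178). All rested values lay below the median reporter in both lineages, so the interaction mainly carries the lineage difference of the effector cells. In this interaction 4 of 3230 genes were called, or 0.124%. The Dnajc15 rest step, 0.33 in Th1 and 0.01 in Th2, was not tested for a difference between lineages.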

How the results depend on the processing

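The rise of Dnajc15 from naive to effector cells (0.91 to 1.73 over 11 alternatives) and to rested cells (1.05 to 1.80) kept its direction and call in each of them, and so it did without each sample in turn (1.48 to 1.63 and 1.65 to 1.80). Memory minus naive lost its call without normalization (1.24, adjusted p = 0.301) and with array a alone (1.33, adjusted p = 0.0602), and was 1.14 to 1.47 when samples were left out, with 2 calls lost. Rested minus effector reversed to -0.0911 under median centring and to -0.0928 without normalization, uncalled throughout, and was 0.12 to 0.21 without single samples. Memory minus rested ran from -0.60 to -0.27 without single samples, passing once, and memory minus effector from -0.42 to -0.10, passing never. The cause of these changes was not tested.

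The Dnajc15 gap between lineages stayed positive in every alternative. In effector cells it was 0.50 with a pseudocount of 16 and 0.58 from the series matrix, and 0.64 to 0.75 without single samples. In rested cells it was 0.76, 0.87 and, under median centring with or without the pattern block, 0.85, and 0.93 to 1.10 without single samples. In memory cells it was 1.28 to 1.93 without single samples. The mean over the stages was 0.78 with a pseudocount of 16 and 1.00 to 1.22 without single samples.

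Pairing by number (the replicate block) changed no call of a Dnajc15 stage comparison, with memory minus naive at 1.31 (limma, adjusted p = 0.00287) and effector minus naive at 1.56 (adjusted p = 4.05e-05). Across stages the pairing check gave 0.327 to 0.734 for naive and memory samples and 0.204 to 0.676 for naive and effector samples. A block by number is therefore less well founded for stage comparisons than for Th1 and Th2 of a stage. The count of called list members depended on the block: with the replicate block it was 2 in effector and 4 in rested cells, against 1 and 1 without it. With the shared pattern as a random block it was 4 in effector, 34 in rested and 7 in memory cells and 15 over the mean of the stages, against 0 in memory cells and 2 over the mean in the fit without a block. With the pattern as a fixed block it was 4, 32, 3 and 10, and with median centring added 3, 29, 13 and 7. Pseudocount 16, the series matrix, the dim filter and the trend and robust options gave 2 in effector and 2 in rested cells. Median centring, no normalization, a pseudocount of 0.25, array a alone and array b alone gave 0 in rested cells, and median centring, no normalization and array a alone gave 1 over the mean. Leaving out single samples gave 0 to 2 in rested cells, with 0 without rested Th1 1, rested Th2 2 or rested Th2 3 and 2 without rested Th1 2.

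The share of all genes higher in effector Th1 than in effector Th2, 54.3%, became 35.6% under median centring, and 40.2% against 50.6% over the mean of the stages. Spot background is unknown, so how far the naive level of Dnajc15 exceeds it cannot be given.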
